A study of Mus musculus with 9 samples.

Results

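The 9 genes described here, P2ry12, P2ry13, Tmem119, Sall1, Cx3cr1, Siglech, Gpr34, Olfml3 and Fcrls, are widely used to mark microglia in their resting, homeostatic state. They were chosen by name, and each symbol was matched to 1 Ensembl identifier among the 52550 genes of the count table. All 9 passed the filter on low counts, which left 18699 genes for testing. Each gene had between 138 and 7985 counts in every one of the 9 mice.

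Spinal cord RNA was sequenced on day 7 after surgery from adult female C57BL/6N mice in a study of phospholipase D (PLD) and its inhibitor FIPI in spinal cord injury (SCI). The Sham group (n = 3) had the vertebral plates over the T10 segment removed without a blow to the cord, and no injection is stated for it. The SCI group (n = 3) had the same opening and a contusion of the cord, with the vehicle DMSO injected intraperitoneally. The SCI+FIPI group (n = 3) had the same contusion and daily intraperitoneal FIPI. The tissue was a length of whole cord around the epicenter, so each value is an average over all cells in it, and microglia were not isolated. Libraries were made from polyadenylated RNA. Total counts lay between 20806000 and 24582377 per mouse. Within each group the mice differed beyond sampling noise (chi-square per gene between 6.76 and 13.2), and each mouse was counted as its own replicate. Sham and SCI differ in the contusion and in the stated vehicle injection, which cannot be told apart here, and all 3 comparisons below share mice.

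Microglia are the resident macrophages of the central nervous system. In the healthy cord they survey the tissue with moving processes, and they are kept in this state by signals such as colony stimulating factor 1 receptor ligands, transforming growth factor beta and the neuronal chemokine fractalkine. Upon injury microglia multiply and turn to phagocytosis, monocytes enter from the blood, and homeostatic genes are known to be reduced within activated microglia. Several of the 9 genes are not limited to microglia: Cx3cr1 is also found on monocytes, Siglech on plasmacytoid dendritic cells and P2ry12 on platelets. Which cells the RNA of each of the 9 genes came from was not tested.

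The genes lie on 6 chromosomes of the GRCm38 build. P2ry12 (ENSMUSG00000036353) and P2ry13 (ENSMUSG00000036362) are neighbours on the reverse strand of chromosome 3, from 59216272 to 59262871 and from 59207892 to 59210882. Both lie within the span of Med12l on the opposite strand, which shares 9 exonic bp with P2ry12 and 0 with P2ry13. Fcrls (ENSMUSG00000015852, 87250758 to 87263738) and Olfml3 (ENSMUSG00000027848, 103722222 to 103738001) lie on the same strand of the same chromosome. Tmem119 (ENSMUSG00000054675) is on chromosome 5 from 113793729 to 113800516, Sall1 (ENSMUSG00000031665) on chromosome 8 from 89027235 to 89044162 and Cx3cr1 (ENSMUSG00000052336) on chromosome 9 from 119901616 to 120069879, all on the reverse strand. Siglech (ENSMUSG00000051504, chromosome 7, 55768178 to 55778925) and Gpr34 (ENSMUSG00000040229, chromosome X, 13632089 to 13640858) are read from the forward strand, Gpr34 within the span of Cask on the opposite strand. At most 1.7% of the exonic bases of a member (Cx3cr1, with the antisense gene Gm33858) overlapped another gene, and at most 1.1% of the 50-base stretches of a member's longest transcript occurred elsewhere among the transcripts.

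The 250 bases before the RefSeq start are shown for 4 of the genes, namely the neighbours P2ry12 and P2ry13, of which P2ry13 was called after injury and P2ry12 was not, and Fcrls and Siglech, which stood at the ends of the order of response described below. They are read 5′ to 3′ on the strand of the gene in GRCm38.p6, at chr3:59262986-59263235 (P2ry12), chr3:59210883-59211132 (P2ry13), chr3:87263525-87263774 (Fcrls) and chr7:55767934-55768183 (Siglech). Capitals mark the letters GAGGAA, a form of the sequence recognised by PU.1, the myeloid transcription factor encoded by Spi1. Only these exact letters are marked, and the shorter GGAA also stands unmarked in all 4 windows shown.
P2ry12: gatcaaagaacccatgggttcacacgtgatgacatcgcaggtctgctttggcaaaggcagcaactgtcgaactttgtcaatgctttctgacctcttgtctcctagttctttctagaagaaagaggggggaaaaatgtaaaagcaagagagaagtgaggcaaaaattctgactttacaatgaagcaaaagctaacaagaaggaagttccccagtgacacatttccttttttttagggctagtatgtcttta
P2ry13: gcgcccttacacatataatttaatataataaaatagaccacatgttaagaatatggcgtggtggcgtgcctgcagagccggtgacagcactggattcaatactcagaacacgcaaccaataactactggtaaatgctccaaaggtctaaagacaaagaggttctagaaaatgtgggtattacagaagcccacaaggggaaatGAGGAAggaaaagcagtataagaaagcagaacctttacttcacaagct
Fcrls: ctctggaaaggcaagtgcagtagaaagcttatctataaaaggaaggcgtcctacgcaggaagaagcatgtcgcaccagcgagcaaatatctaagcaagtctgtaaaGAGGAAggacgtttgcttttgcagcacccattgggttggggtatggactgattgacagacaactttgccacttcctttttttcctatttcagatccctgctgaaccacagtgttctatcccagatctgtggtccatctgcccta
Siglech: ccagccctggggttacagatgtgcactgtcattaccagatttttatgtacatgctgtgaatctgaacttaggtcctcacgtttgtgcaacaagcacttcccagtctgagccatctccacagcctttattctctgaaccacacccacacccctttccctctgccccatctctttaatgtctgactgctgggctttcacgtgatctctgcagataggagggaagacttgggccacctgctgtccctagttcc
The RefSeq table held promoters of 7 of the 9 genes, in 9 windows because Sall1 has several starts. On both strands, GAGGAA occurred once in the P2ry13 window, 48 bases before the start, and once in the Fcrls window, 144 bases before it. It was not among the letters of the other windows, which include those of Olfml3 and Cx3cr1, also called higher after injury. The RefSeq start of P2ry12 lies upstream of the GENCODE gene. The windows of Fcrls and Siglech reach into their GENCODE genes, and the GAGGAA of the Fcrls window lies inside the gene. The Cx3cr1 window lies wholly inside its GENCODE gene, as do all Sall1 windows but the most upstream. The same letters occurred in 23.3% of all 32851 promoter windows of this length. The longer GAGGAAGT, which contains GAGGAA, and GGAANNGAA, the form read by PU.1 with an interferon regulatory factor, occurred in none of the windows of these genes and in 2.44% and 6.99% of all windows.

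On day 7 after injury 6 of the 9 genes were higher than in the Sham group and the other 3 did not pass the test. Fcrls, Olfml3, Tmem119, Cx3cr1, Gpr34 and P2ry13 were higher in SCI mice than in Sham mice, by 7.67-fold for Fcrls down to 2.41-fold for P2ry13. P2ry12, Sall1 and Siglech were not called, with log2 fold changes of 0.04, 0.08 and -0.57. A gene was called when its log2 fold change was 0.5 or more in size and its adjusted p was under 0.05, the limits of the study, here with edgeR's quasi-likelihood test and Benjamini-Hochberg adjustment over all genes tested. By this rule 6 of the 9 genes were higher and 0 lower, while 24.4% of all genes tested were higher, 22.5% lower and 47.0% changed in either direction. The median log2 fold change of the 9 genes was 1.44, beside 0.00 for all genes. Levels are in CPM, counts scaled to a common library total after TMM normalization. In these whole-tissue libraries fewer cells of a type and less RNA per cell cannot be told apart.

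**Figure D1:**
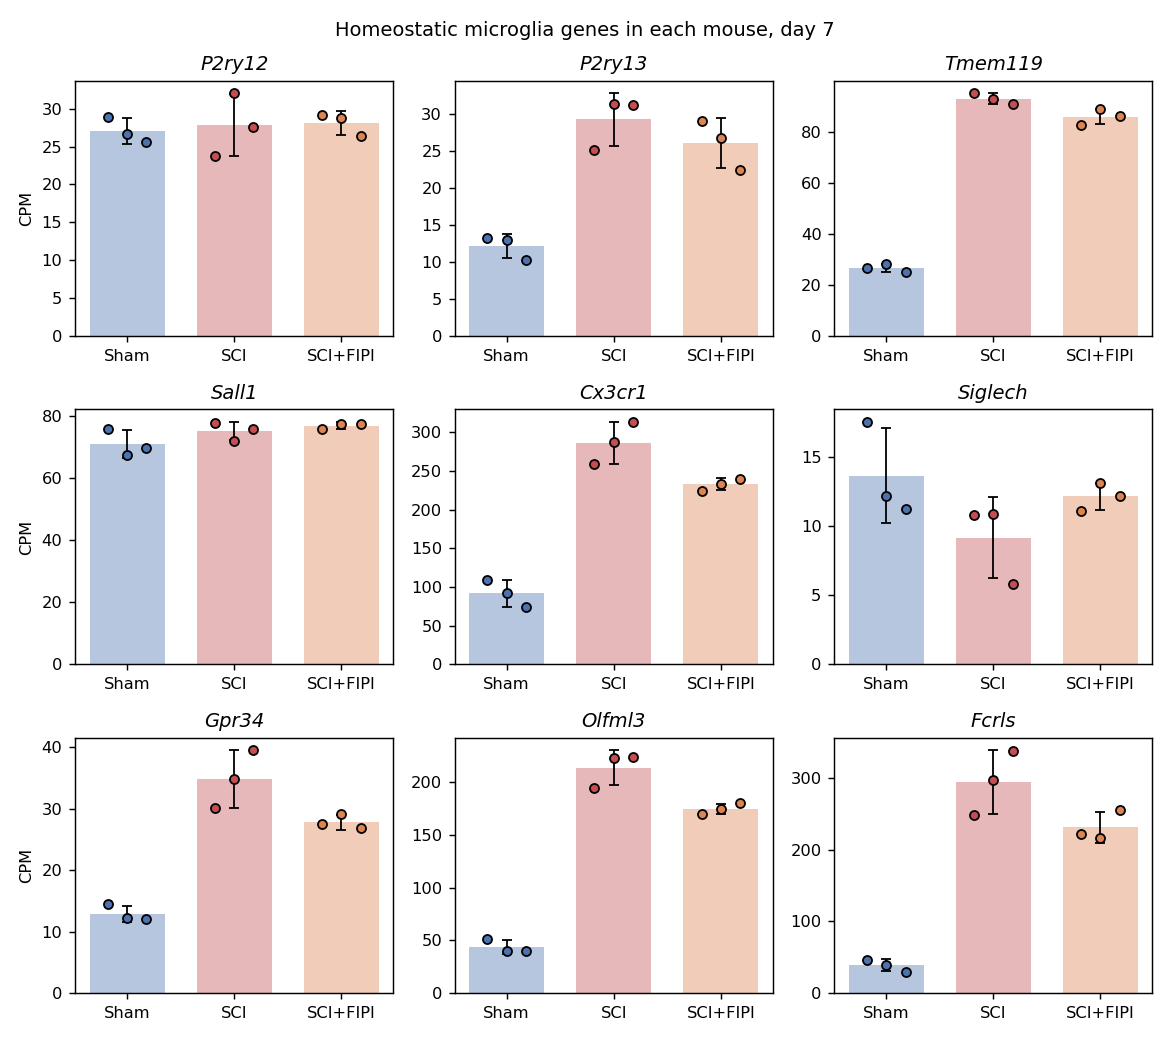
Level of each of the 9 genes in CPM (vertical axis, linear from 0, a scale of its own in each panel) in the Sham, SCI and SCI+FIPI groups. Points are mice, bars are means and error bars are SD (n = 3 mice each). For Fcrls, Olfml3, Tmem119, Cx3cr1, Gpr34 and P2ry13 every mouse of both injured groups lies above every Sham mouse, and for P2ry12 and Sall1 the 3 groups overlap.

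Of the purinergic receptors, P2ry13 was called and P2ry12 was not. P2ry12, the receptor for ADP through which microglial processes are drawn to damaged cells, had 28.9, 26.6 and 25.6 CPM in the Sham mice and 23.8, 32.1 and 27.6 CPM in the SCI mice. The SCI mice lay on both sides of the Sham mice. The log2 fold change of P2ry12 was 0.04 with a 95% interval from -0.17 to 0.26 (adjusted p = 0.719), and it was negative with upper-quartile scaling and without SCI mouse 2. P2ry13, a related ADP receptor, had 13.3, 12.96 and 10.3 CPM in the Sham mice and 25.2, 31.5 and 31.3 CPM in the SCI mice. All SCI mice were above all Sham mice, by 1.27 on the log2 scale (standard error 0.127, adjusted p = 8.09e-07). The count of P2ry12 over that of P2ry13 was 2.17, 2.05 and 2.49 in the Sham mice and 0.944, 1.02 and 0.883 in the SCI mice. The groups did not overlap in this ratio, which compares a gene pair chosen after its values were seen.

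Gpr34, a receptor for the lipid lysophosphatidylserine, had 14.4, 12.1 and 11.99 CPM in the Sham mice. In the SCI mice its level was 30.1, 34.9 and 39.5 CPM, above all Sham mice (log2 fold change 1.44, standard error 0.106, adjusted p = 2.08e-08). Cx3cr1, the fractalkine receptor, rose from 109, 92.0 and 74.7 CPM in the Sham mice to 259, 287 and 313 CPM in the SCI mice. The spread among Sham mice was wide for this gene, but the lowest SCI mouse still exceeded the highest Sham mouse. The difference was 1.64 on the log2 scale (standard error 0.120, adjusted p = 3.54e-07). Cx3cl1, which encodes its ligand fractalkine and is made mainly by neurons, moved the other way, from 199 ± 11.2 to 91.3 ± 5.47 CPM (SD, n = 3 each), with a log2 fold change of -1.12 (adjusted p = 1.33e-09).

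With TMM scaling Siglech, a member of the Siglec family of lectins, was the single member with a negative difference. It had 17.6, 12.2 and 11.2 CPM in the Sham mice and 10.8, 10.9 and 5.82 CPM in the SCI mice. Every SCI mouse was below every Sham mouse, but 2 of the SCI mice came close to the lowest Sham mouse. The difference was -0.57 on the log2 scale (standard error 0.244, 95% interval from -1.12 to -0.02), and the adjusted p, 0.0652, missed the limit. It was -0.32 without SCI mouse 3 and -0.35 without Sham mouse 1. With DESeq2 Siglech passed both limits (adjusted p = 0.0149), and over all settings run its adjusted p lay between 0.000207 and 0.199. Of the markers listed for plasmacytoid dendritic cells, 6 of 8 were tested, and none was at 0 in every mouse. After injury 3 of the 6 rose and 1 fell (median log2 fold change 0.82), where 24.4% of all genes rose and 22.5% fell. The summed level of the listed markers was 467 to 525 CPM in the Sham mice and 335 to 408 CPM in the SCI mice. Most of it came from Tcf4 and from Pacsin1, which neurons also express and which was the marker that fell (mean 333 and 109.9 CPM). Whether the markers that rose did so in these cells was not tested, nor was the part of these cells in the Siglech values.

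Fcrls, a scavenger receptor related to Fc receptors, showed the highest fold change of the 9 genes. Its levels were 46.2, 39.3 and 29.8 CPM in the Sham mice and 248, 298 and 337 CPM in the SCI mice. The groups were far apart, and 2.94, its log2 fold change (standard error 0.179, adjusted p = 1.11e-06), was the 437th highest of 18699. The fold change was 7.67, with a 95% interval from 5.76 to 10.2.

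Tmem119, a membrane protein that is used to tell microglia from other macrophages in sections, had 26.6, 28.4 and 25.03 CPM in the Sham mice and 95.2, 92.8 and 91.1 CPM in the SCI mice. The mice of each group were close together, and its standard error of 0.063 was the smallest of the 9 genes after that of Sall1 (log2 fold change 1.80, adjusted p = 3.62e-11). Olfml3, a secreted protein with an olfactomedin domain, had 51.2, 39.6 and 39.5 CPM in the Sham mice and 195, 223 and 224 CPM in the SCI mice. The groups did not overlap and differed by 2.30 on the log2 scale (standard error 0.0956, adjusted p = 3.88e-10). Sall1, a zinc finger transcription factor needed to maintain microglial identity, had 75.9, 67.4 and 69.7 CPM in the Sham mice and 77.8, 71.9 and 75.8 CPM in the SCI mice. These groups overlapped, with a log2 fold change of 0.08 and a 95% interval from -0.05 to 0.21 (adjusted p = 0.238). With GC and length offsets the value for Sall1 was -0.14, where the median of all genes was -0.10.

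In all, 7 of the 9 genes had groups without overlap, 6 higher and 1 lower after injury, where 70.5% of all genes tested did not overlap (35.6% higher and 35.0% lower).

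**Figure D2:**
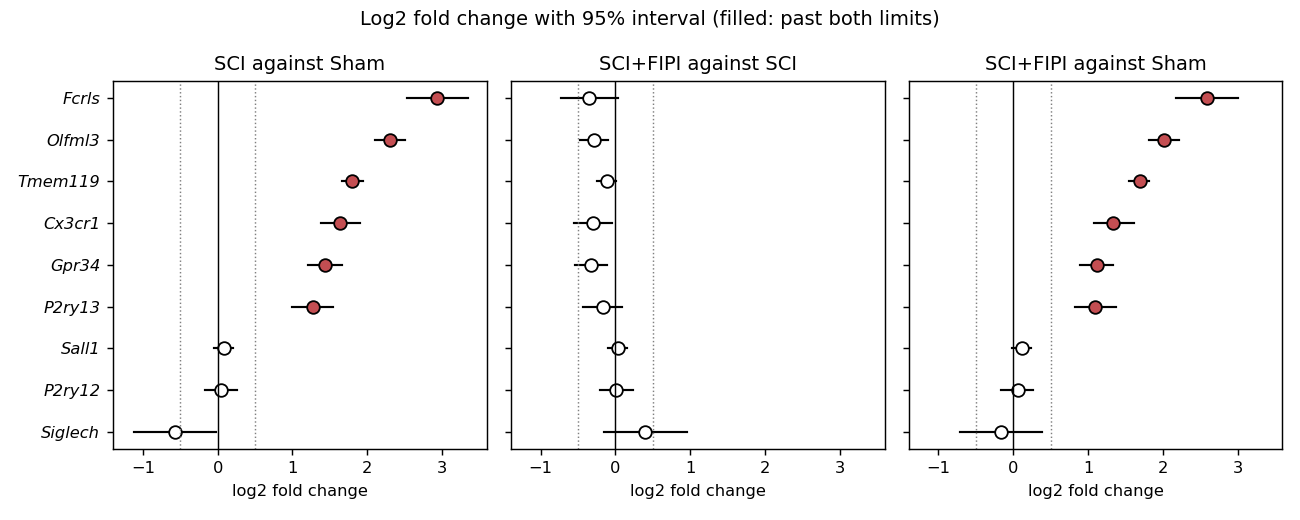
Log2 fold change of the 9 genes (horizontal axis) in the 3 comparisons, with lines for the 95% interval of edgeR's model and dotted lines at 0.5 either side of 0. Filled points passed both limits, which were Fcrls, Olfml3, Tmem119, Cx3cr1, Gpr34 and P2ry13 in both comparisons with Sham and no gene in SCI+FIPI against SCI.

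With FIPI, none of the 9 genes passed both limits relative to the SCI group. By the edgeR test 0 of 9 were called, where 3.06% of all genes were (2.36% higher and 0.695% lower), and 3 of 9 had an unadjusted p under 0.05, where 25.2% of all genes did. DESeq2 and limma-voom also called 0 of 9. The 572 genes behind the share of 3.06% became 189 without SCI+FIPI mouse 2, 240 without SCI mouse 3, 341 without SCI mouse 2 and 1038 without SCI mouse 1. The 3 genes were Gpr34 (log2 fold change -0.32, 95% interval from -0.54 to -0.11, adjusted p = 0.057), Olfml3 (-0.29, from -0.48 to -0.10, adjusted p = 0.0584) and Cx3cr1 (-0.30, from -0.56 to -0.04, adjusted p = 0.134). The median of the 9 was -0.17, beside 0.00 for all genes, and it was -0.26 without SCI mouse 1.

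In the SCI+FIPI mice Gpr34 had 27.5, 29.2 and 26.8 CPM, below all SCI mice, and the lowest SCI mouse was near the highest treated one. Olfml3 had 170, 175 and 179.9 CPM, and Cx3cr1 had 225, 233 and 240.0 CPM, in both cases below every SCI mouse. Tmem119, with 82.8, 88.9 and 86.4 CPM, also lay below the SCI mice, by a smaller amount (log2 fold change -0.11, 95% interval from -0.24 to 0.01). For Fcrls the treated mice had 221, 216 and 255 CPM and overlapped the SCI mice, with a log2 fold change of -0.35 whose interval reached from -0.73 to 0.03. The interval of Fcrls thus leaves room for a difference past 0.5 on the log2 scale, as do those of Gpr34, Cx3cr1 and Siglech. P2ry13 had 29.1, 26.8 and 22.5 CPM, again overlapping (-0.17, from -0.43 to 0.09). This difference was -0.26 without SCI mouse 1, -0.11 without SCI mouse 2 and -0.071 without SCI+FIPI mouse 3.

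For the 3 genes that had not passed the test after injury the differences between treated and SCI mice ran from 0.01 to 0.40. P2ry12 had 29.2, 28.7 and 26.4 CPM with FIPI and overlapped the SCI mice (log2 fold change 0.01, 95% interval from -0.20 to 0.23), and the value was negative with GC and length offsets and without any one of SCI mouse 1, SCI+FIPI mouse 1 or SCI+FIPI mouse 2. Sall1 had 75.7, 77.4 and 77.6 CPM, overlapping as well (0.03, from -0.10 to 0.16). Siglech had 11.1, 13.1 and 12.2 CPM, with each treated mouse above each SCI mouse (0.40, from -0.15 to 0.96, adjusted p = 0.348). Without SCI mouse 3 the value for Siglech was 0.16. Groups did not overlap for 5 of the 9 genes, 4 lower and 1 higher, where 30.2% of all genes did not overlap (14.5% lower and 15.7% higher).

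Against the Sham group, 6 of the 9 genes were higher in the SCI+FIPI group and 0 lower, where 21.2% of all genes were higher and 38.1% changed in either direction. Over all genes 3957 were higher and 3171 lower, or 3218 and 4109 with GC and length offsets. The 6 called members were the same genes of the 9 that were higher in the SCI group, and both comparisons use the same Sham mice. Log2 fold changes were 2.59 for Fcrls, 2.01 for Olfml3, 1.69 for Tmem119, 1.34 for Cx3cr1, 1.12 for Gpr34 and 1.10 for P2ry13, with adjusted p-values from 1.4e-10 for Tmem119 to 5.23e-06 for P2ry13. For P2ry12, Sall1 and Siglech the values were 0.06, 0.12 and -0.16, none of them called, and the treated mice overlapped the Sham mice for each. The value for Sall1 was -0.097 with GC and length offsets, where the median of all genes was -0.12, and that for Siglech was 0.053 without Sham mouse 1. For the 6 called genes every treated mouse was above every Sham mouse, as for 33.4% of all genes.

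Per length of transcript, the order of the genes changed with injury. Expressed as FPKM, which scales counts to the library total and to exonic length, the highest mean in the Sham group was that of Cx3cr1 (20.5), followed by Fcrls (16.6), Sall1 (13.6), Tmem119 (11.6), P2ry12 (10.7), Olfml3 (7.10), Gpr34 (6.19), P2ry13 (4.86) and Siglech (4.07). Neighbours overlapped between mice except for Sall1 against Tmem119, P2ry12 against Olfml3 and Gpr34 against P2ry13. In the SCI group Fcrls came first with 124 FPKM, then Cx3cr1 (62.7), Tmem119 (39.7), Olfml3 (34.3), Gpr34 (16.4), Sall1 (14.1), P2ry13 (11.5), P2ry12 (10.8) and Siglech (2.68), where only Gpr34 against Sall1 and P2ry13 against P2ry12 overlapped. In the SCI+FIPI group Fcrls (99.2 FPKM), Cx3cr1 (51.8), Tmem119 (37.3) and Olfml3 (28.5) again came first in this order.

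Fcrls made up 15.4% to 18.5% of the summed FPKM of the 9 genes in the Sham mice, 36.9% to 41.5% in the SCI mice and 34.9% to 39.1% in the SCI+FIPI mice. Over the same groups the mean share of P2ry12 was 11.3%, 3.41% and 4.11%, that of Sall1 was 14.4%, 4.49% and 5.43%, and that of Siglech was 4.24%, 0.865% and 1.34%. The shares of Cx3cr1 and Tmem119 stayed within a narrower range, with means of 21.5%, 19.8% and 19.2% for Cx3cr1 and of 12.3%, 12.6% and 13.8% for Tmem119. A sum of the 9 genes is thus weighted towards Fcrls and Cx3cr1. It came to between 82.7 and 107 FPKM in the Sham mice, between 285 and 344 in the SCI mice and between 262 and 281 in the SCI+FIPI mice.

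**Figure D3:**
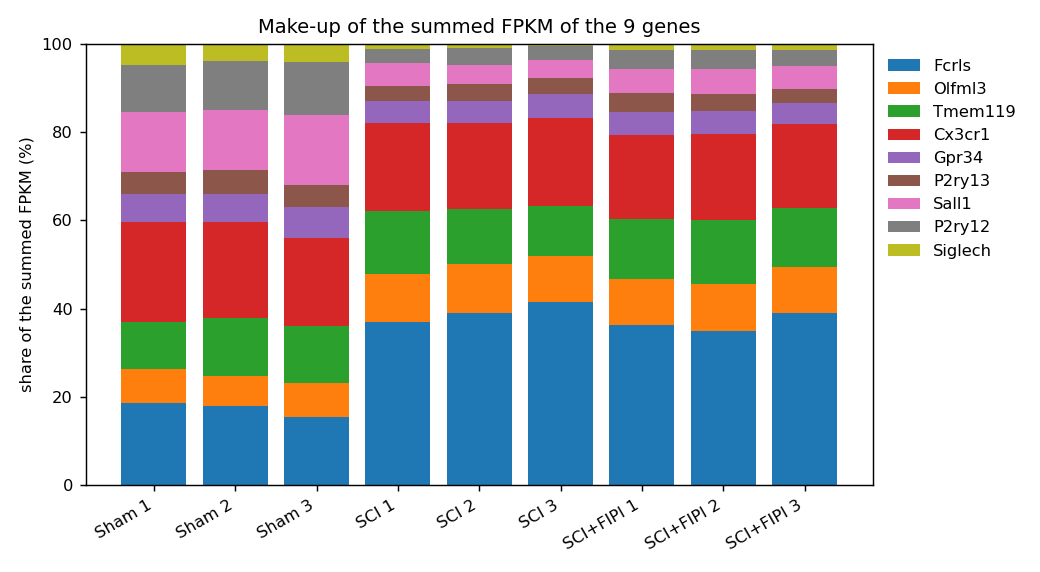
Share of each gene in the summed FPKM of the 9 genes (vertical axis, percent), with one stacked bar per mouse. Fcrls takes 15.4% to 18.5% of the sum in the Sham mice and 36.9% to 41.5% in the SCI mice, and Siglech has mean shares of 4.24% and 0.865%.

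General myeloid genes, which do not tell microglia from other macrophages, and markers of other macrophages moved with the injury. All 12 general myeloid genes, among them Cd68 (a lysosomal protein), C1qa (a complement component) and Itgam (an integrin of the complement receptor), rose in the SCI group with a median log2 fold change of 2.97, from a summed 646 to 951 CPM in the Sham mice to 5895 to 6888 CPM in the SCI mice. Of the markers of monocyte-derived macrophages, 8 of 9 tested rose, and their sum was 32 to 79.95 CPM in the Sham mice and 496 to 606 CPM in the SCI mice. All 8 markers of border macrophages rose (46.95 to 49.1 and 770.4 to 945 CPM). So did 14 of 14 genes of activated phagocytes and 8 of 8 proliferation genes, where 24.4% of all genes rose. None of these markers was at 0 in every mouse, and their part in the levels of the 9 genes was not tested. In the SCI+FIPI mice the sums were 4524 to 5335 CPM for the general myeloid genes, 367 to 484 CPM for the markers of monocyte-derived macrophages and 478 to 616 CPM for those of border macrophages, below the SCI mice in each case. Of the single genes behind these sums 0 of 12, 1 of 9 and 2 of 8 were called lower in SCI+FIPI against SCI. Of all genes tested 0.695% were. The sum of the border macrophage markers was mostly Stab1, a scavenger receptor, with a mean of 719 CPM in the SCI mice and 467 CPM in the SCI+FIPI mice. The count of 1 became 0 without SCI mouse 2 or 3 or SCI+FIPI mouse 2 or 3, and the count of 2 became 1 without SCI mouse 2 or 3 or SCI+FIPI mouse 1 or 3.

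Of 20 other genes enriched in microglia, 19 were tested. In the SCI group 24.4% of all genes were higher and 22.5% lower, and of the 19 it was 13 and 1 (median log2 fold change 1.54). Those that rose included P2ry6, a receptor for UDP linked to phagocytosis (3.24), and Rnase4 (2.57). Slc2a5, a fructose transporter, fell (-0.67, adjusted p = 0.0127). Crybb1, a crystallin, had a log2 fold change of 0.18 and was not called. In SCI+FIPI against SCI 0 of the 19 were called, where 3.06% of all genes were, and the median of the 19 was -0.27. Among 15 signals and receptors that maintain microglia, 10 were higher and 1, Cx3cl1, lower in the SCI group. Csf1r, the receptor for the survival factors Csf1 and Il34, rose with a log2 fold change of 1.55, Csf1 rose by 1.21, and Il34 was not called at 0.36. Tgfb1 rose by 3.03 and Nrros, which anchors latent transforming growth factor beta on microglia, by 3.26. Nrros was also the single gene of this list called between SCI+FIPI and SCI, lower in the treated mice (-0.54, adjusted p = 0.0114), and none of the list was called without SCI mouse 3 or without SCI+FIPI mouse 2.

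All 7 transcription factors of microglia on the list rose after injury, where 24.4% of all genes did. The 7 log2 fold changes ran from 0.58 for Mef2a and 0.86 for Mef2c to 2.99 for Spi1, beside 0.08 for Sall1. In SCI+FIPI against SCI the median of this list was -0.36. Csf1r, Entpd1 and Tgfbr1 each stand on more than 1 of the lists, so the lists are not independent.

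**Figure D4:**
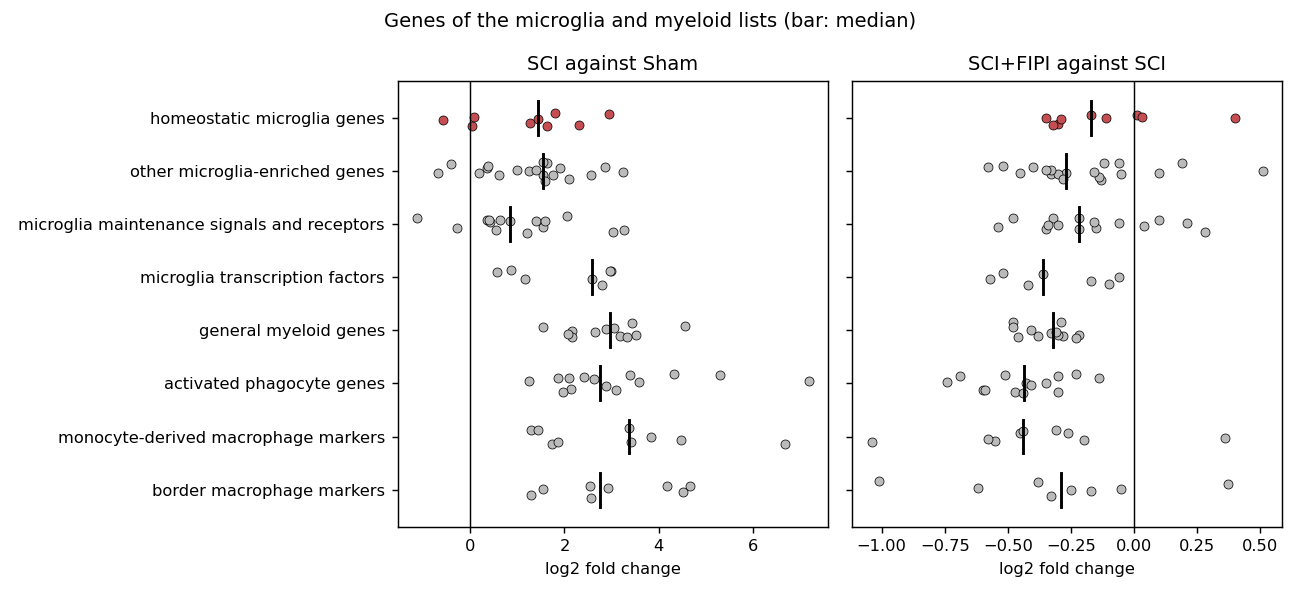
Log2 fold change (horizontal axis) of the genes of 8 lists, in SCI against Sham on the left and SCI+FIPI against SCI on the right. Points are genes, spread vertically for view only, and bars are medians. In SCI against Sham the 9 homeostatic genes (red) have a median of 1.44 and the general myeloid genes 2.97.

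Set against the general myeloid genes, the level of most of the 9 genes was lower after injury. The measure was the log2 CPM of a gene minus the mean log2 CPM of the 12 general myeloid genes in the same mouse. P2ry12 stood at -0.72, -0.90 and -0.29 in the Sham mice and at -3.61, -3.27 and -3.63 in the SCI mice. Siglech went from -1.44, -2.02 and -1.47 to -4.75, -4.81 and -5.86. The mean difference was -3.50 for Siglech, -2.87 for P2ry12 and -2.82 for Sall1, and it was -0.59 for Olfml3. Since the reference genes themselves rose, a lower value is what most genes showed, and the median difference of all genes tested was -2.90. Fcrls had a difference of 0.05 and was the only member whose groups overlapped on this measure. For the mean of the 9 genes the difference was -1.69, which is a description with no test. It was -0.79 when the reference was limited to Aif1, Csf1r, Itgam and Ptprc. By that reference Olfml3 (0.30) and Fcrls (0.94) were higher in all SCI mice than in all Sham mice. P2ry12, P2ry13, Sall1, Cx3cr1, Siglech and Gpr34 were lower in all SCI mice, and Tmem119 (-0.20) overlapped. The share of all genes without overlap is not given for this smaller reference.

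Groups did not overlap for 8 of the 9 genes on this measure, all lower after injury, but the same was true of 95.4% of all genes tested, so the count is no result about the 9 genes. In SCI+FIPI against SCI the difference was 0.24 for the mean of the 9 genes, where the median of all genes was 0.35. Siglech (0.80), Sall1 (0.38) and P2ry12 (0.37) had each treated mouse above each SCI mouse, while 54.6% of all genes did. In SCI+FIPI against Sham the mean difference was -1.45 (median of all genes -2.56), or -0.54 with the 4 reference genes, and 8 of the 9 genes were again lower without overlap, where 94.8% of all genes were.

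**Figure D5:**
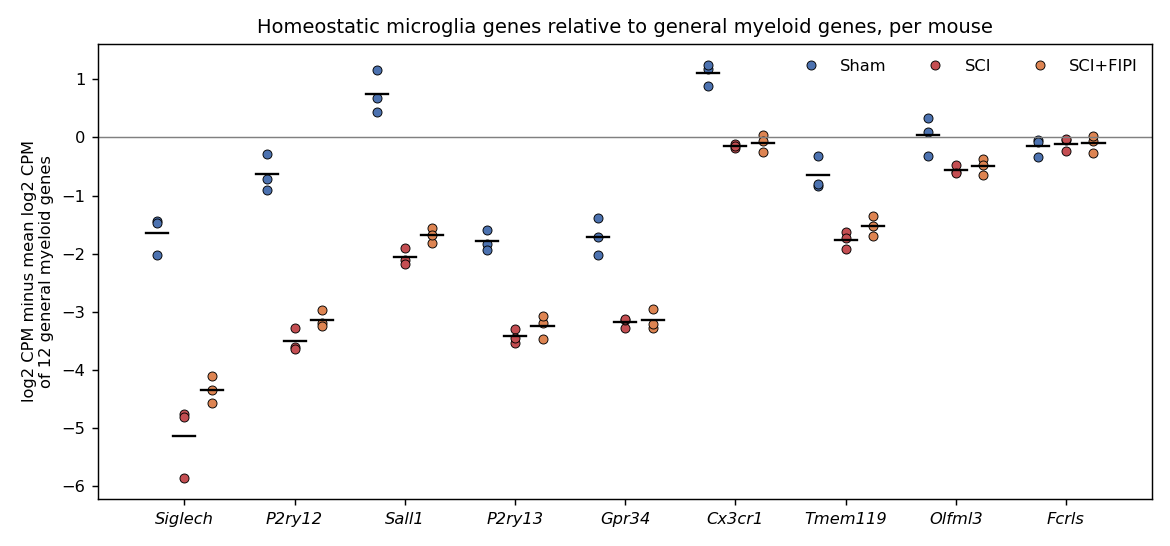
Log2 CPM of each of the 9 genes minus the mean log2 CPM of 12 general myeloid genes in the same mouse (vertical axis). Points are mice and bars are group means. Siglech, P2ry12 and Sall1 lie furthest below their Sham mice in the SCI group (differences of -3.50, -2.87 and -2.82), and Fcrls differs by 0.05.

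Profiles across the mice were compared by the root mean square difference of log2 CPM centred on each gene's mean over 9 mice. Among the 9 genes the smallest value was 0.14, for P2ry12 with Sall1, for P2ry13 with Gpr34 and for Cx3cr1 with Gpr34, and the largest was 1.56 for Siglech with Fcrls. The count of P2ry12 was 0.380, 0.395 and 0.367 of that of Sall1 in the Sham mice, 0.306, 0.446 and 0.365 in the SCI mice and 0.386, 0.371 and 0.340 in the SCI+FIPI mice, overlapping in all groups. The count of Cx3cr1 was 6.17, 7.55 and 6.65 times that of Siglech in the Sham mice, 23.9, 26.3 and 53.8 times in the SCI mice and 20.2, 17.8 and 19.7 times in the SCI+FIPI mice. The highest of these ratios belongs to SCI mouse 3, which had the lowest level of Siglech. These pairs were picked after their values were seen.

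Among all other genes tested, the profile nearest to Cx3cr1 was that of Csf1r (0.075). Nearest to Fcrls were Cenpa (0.098), Spi1 (0.101) and C1qa (0.104), and nearest to Tmem119 were Bmp1 (0.072), Gpx1 (0.073) and Vamp8 (0.078). Itgb5 (0.092) was nearest to Olfml3, Actn1 (0.069) to Gpr34 and Gm49342 (0.089) to P2ry13. Sall1 was closest to Atp13a2 (0.028) and P2ry12 to Pcdhga7 (0.065), genes with little difference between the groups. The gene nearest to Siglech, Sycp3, differed by 0.155. The 9 mice fall into 3 groups, so likeness here mostly compares group levels.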

How the data were processed

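After trimming of low-quality and adapter sequence, the authors deposited whole-number counts of reads, not normalized, for 52550 Ensembl genes in 9 mice. All sample columns were used. The submitters' processing notes name GRCm38 and R 4.2.3. The aligner and the counter are not given in the sources used here, nor is whether counting used the strand, so reads of Med12l and P2ry12 could not be told apart where they overlap.

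Identifiers were matched to the GENCODE annotation of GRCm38 (52403 found). Counts were fitted in R 4.3.3 with edgeR 4.0.16: TMM factors (0.985 to 1.02), filterByExpr by group, and a robust quasi-likelihood model with 1 mean per group over all 9 mice (common dispersion 0.00866), with Benjamini-Hochberg adjustment. CPM and log2 CPM (prior count 2) used TMM-scaled totals, and FPKM used exonic length. DESeq2 1.42.0 and limma 3.58.1 were alternatives. Python 3.11.15, numpy 2.4.6, scipy 1.17.1, pandas 2.3.3 and matplotlib 3.10.9 served for other steps. Steps were tested on simulated data.

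The 9 genes and the gene lists were chosen with earlier results of these data known. All 9 genes were named, genes of the lists of other microglia genes, maintenance signals, transcription factors and general myeloid genes could be named, and profiles were matched to the 3 nearest genes, of which not all are printed. Some results for genes of the lists are not reported here. The sources do not say whether libraries of a group came from separate or pooled animals, so p-values measure only the spread between these samples, called mice here, which may be technical. Mice with the same replicate number in different groups are different animals, and their deviations from the group means correlated between -0.073 and 0.108 (9 pairs), so numbers did not pair samples. Alternatives were other scaling factors, filters and tools, GC and length offsets, the replicate block, fits to the 2 groups compared, another prior count, a smaller myeloid reference and each mouse left out. Totals were 20806000 to 24582377 counts per mouse.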

Additional observations from a re-analysis of the deposited data

How the results depend on the processing

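Counts of called genes among the 9, their median log2 fold change and their level relative to general myeloid genes kept their direction under every alternative run (51, 48 and 27 comparisons with the reported value), although the count for SCI against Sham was 6 or 7. The value relative to myeloid genes moved from -1.69 to -0.79 (SCI against Sham) and from -1.45 to -0.54 (SCI+FIPI against Sham) with the 4-gene reference. Of the log2 fold changes of single genes, 412 kept direction and call. The seventh gene was Siglech in SCI against Sham, which passed both limits with upper-quartile factors (-0.64, adjusted p = 0.0433), no filter (-0.55, 0.000207), DESeq2 (-0.57, 0.0149), offsets for GC content and gene length (-0.67, 0.0376), and without Sham mouse 3 (-0.69, 0.0478) or SCI mouse 2 (-0.71, 0.0481). With the replicate number as a block it was -0.58 (0.0235), and -0.68 (0.0156) with block and offsets. The numbers did not pair the samples, and the block changed no other call of the 9 genes. Signs turned for genes that were not called. P2ry12 in SCI against Sham was -0.022 with upper-quartile factors and between -0.07 and 0.14 leaving out each mouse (-0.066 without SCI mouse 2). In SCI+FIPI against SCI P2ry12 was -0.036 with the offsets, -0.035 with offsets and block, and between -0.08 and 0.13 leaving out each mouse (-0.081 without SCI mouse 1, -0.016 and -0.002 without SCI+FIPI mouse 1 or 2). Sall1 was -0.14 in SCI against Sham with the offsets, with or without the block, and -0.097 in SCI+FIPI against Sham (-0.095 with the block). Siglech in SCI+FIPI against Sham was between -0.29 and 0.05 leaving out each mouse (0.053 without Sham mouse 1). The cause was not tested. The offsets moved the median of all genes to -0.10 in SCI against Sham and to -0.12 in SCI+FIPI against Sham, and turned the split of calls from 4571 higher and 4209 lower to 3963 and 4884 in the former, and from 3957 and 3171 to 3218 and 4109 in the latter. Over all genes, the 572 calls of SCI+FIPI against SCI became 189 without SCI+FIPI mouse 2, 240 without SCI mouse 3, 341 without SCI mouse 2 and 1038 without SCI mouse 1. Every member had at least 138 counts in every mouse.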

Other observations

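Other cell types of the cord also differed between the groups. All 10 neuron markers were lower in SCI mice than in Sham mice (median log2 fold change -1.68). Of all genes tested 24.4% were higher and 22.5% lower in that comparison. Of 8 oligodendrocyte markers 5 were lower after injury (median -0.62), and of 8 astrocyte markers 3 were higher and 2 lower (median 0.28). All 6 fibroblast markers were higher (median 3.30), as were 4 of 7 endothelial markers (median 0.70). Of 10 neutrophil markers 1 was higher (median 0.03), as was 1 of the 5 T and NK cell markers tested (median 0.09), and of the 6 tested markers of plasmacytoid dendritic cells 3 were higher and 1 lower (median 0.82). In SCI+FIPI against SCI 7 of the 10 neuron markers were higher by edgeR (median 0.56, all 10 positive), where 2.36% of all genes were. The count was 2 without SCI mouse 3, 3 without SCI+FIPI mouse 2, 4 without SCI+FIPI mouse 1 and 5 to 9 without any single one of the other mice. In the same comparison none of the markers of oligodendrocytes, astrocytes, fibroblasts, endothelium, neutrophils, T and NK cells or plasmacytoid dendritic cells was called by edgeR.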
